A study of Mus musculus with 12 samples.

Results

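The 10 Kruppel-like factor genes Klf2, Klf3, Klf4, Klf5, Klf6, Klf7, Klf9, Klf10, Klf11 and Klf13 were followed across the 4 groups of the series, as 10 of 54146 Ensembl gene rows in the count tables. They were chosen as a list of family members by name, and all 10 passed the filter on low counts that left 14283 genes for testing. RNA was sequenced from BMEL cells, a line of bipotential mouse embryonic liver cells established from a CDK8F/F mouse, whose Cdk8 alleles are floxed. The untransformed group was labelled wild type with no transformation, and the RasG12V group was wild type and transformed by H-RasG12V, an activated form of the small GTPase H-Ras. The other two groups were transformed by H-RasG12V and labelled Cdk8 -/- or Cdk19 -/-, the 2 kinases that can occupy the kinase module of the Mediator complex. Each group had 3 libraries from cells growing exponentially on collagen in medium with serum, insulin, IGFII and EGF. All groups came from this line, and the labels do not state whether a group was a clone or whether its replicates were separate cultures, so the p-values reflect how far these libraries scatter, and that scatter may be technical.

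Kruppel-like factors bind GC-rich and CACCC elements through 3 zinc fingers at the carboxyl end, the same kind of element that Sp factors bind. Klf2, Klf4, Klf5, Klf6 and Klf7 are mostly activators that recruit acetyltransferases, Klf3 is a repressor that recruits CtBP, and Klf9, Klf10, Klf11 and Klf13 are repressors that recruit Sin3A. In liver, Klf6 is known as an early response gene of injured cells, Klf10 and Klf11 as genes induced by TGF-beta, and Klf2 as a gene of sinusoidal endothelium that the MEK5, ERK5 and MEF2 pathway induces.

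The upstream promoter bases of Klf2 and Klf4 are shown because these genes had the largest rise and the largest fall of the family. RefSeq promoter windows, on GRCm38.p6 and reaching from 250 bases before to 50 after the annotated start, were present for 8 of the 10 genes and not for Klf5 and Klf10. The Klf2 bases are chr8:72318812-72319032 on the plus strand and the Klf4 bases are chr4:55532476-55532725 on the minus strand, written 5′ to 3′, with capitals for any match on either strand to the MEF2 consensus, to the GC box GGGCGG or to CACCC.
Klf2: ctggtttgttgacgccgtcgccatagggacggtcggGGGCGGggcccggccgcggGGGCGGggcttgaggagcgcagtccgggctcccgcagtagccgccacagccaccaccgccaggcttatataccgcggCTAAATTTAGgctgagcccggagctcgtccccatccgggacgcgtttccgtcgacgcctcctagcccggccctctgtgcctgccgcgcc
Klf4: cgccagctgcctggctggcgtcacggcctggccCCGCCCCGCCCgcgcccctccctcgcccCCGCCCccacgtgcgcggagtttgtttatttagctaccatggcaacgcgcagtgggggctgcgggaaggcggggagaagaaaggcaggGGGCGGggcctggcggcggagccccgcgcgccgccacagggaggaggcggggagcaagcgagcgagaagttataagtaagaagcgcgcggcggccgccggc
The Klf2 bases held 2 GGGCGG boxes and, from 118 to 109 bases before the RefSeq start, the only match to the MEF2 consensus found in the 8 windows. The Klf4 bases held 4 GGGCGG boxes, of which the first 2 overlap by 1 base, and its window held no CACCC box. GGGCGG occurred in 35.7%, CACCC in 57.5% and the MEF2 consensus in 0.557% of all 32851 windows of 300 bases in the RefSeq table. These matches describe the letters only.

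Libraries held 24823560 to 36879661 gene counts, so that 3 counts equalled 0.0813 to 0.121 CPM, the gene counts scaled to a common library size. Hras rose from 50.0 ± 8.6 to 453 ± 122 CPM (SD, n = 3) with transformation, while gene-level counts of Cdk8 (42.8 CPM in the Cdk8 -/- group, 54.5 in RasG12V) and Cdk19 (49.8 CPM in the Cdk19 -/- group, 75.1 in RasG12V) cannot check a knockout, since they sum reads from every exon. Of 17 hepatic progenitor markers, 14 reached 1 CPM in untransformed cells and 12 in RasG12V cells. Between these groups, 4 of 15 tested markers rose and 6 fell at an adjusted p under 0.05 by edgeR, beside 23.4% of all genes. Without replicate 3 of both groups, 3 rose and 11 fell, beside 40.0% of all genes. Alb went from 3.05 to 0.0201 CPM and Foxa1 from 9.88 to 23 CPM. Epcam averaged 0.0527 CPM in untransformed cells, and Dlk1 was at 0 in every library. The mesothelial marker Msln stood at 1464 CPM in untransformed and 1343 CPM in RasG12V cells, and Wt1 at 0.0305 and 0.0559 CPM. Replicate 3 of the untransformed group and replicate 3 of the RasG12V group stood apart from their groups. The mean chi-square per gene was 52.0 and 52.4 between untransformed replicate 3 and its group against 7.69 between its other libraries, and 86.9 and 80.0 between RasG12V replicate 3 and its group against 4.42. Each result below is therefore also given without both of these libraries where that changes it. They were picked for their scatter in these same counts, and only replicates 1 and 2 of the untransformed and RasG12V groups then remain. Leaving out the most deviant libraries lowers the estimated spread, so p-values without them may be too small.

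RasG12V replicate 3 differed in the family as well. Of the 10 members, 9 were higher in it than in the mean of RasG12V replicates 1 and 2, with a median log2 ratio of 0.38 against -0.0015 over all genes tested. Klf11 stood 0.96, Klf3 0.74, Klf9 0.59, Klf4 0.58 and Klf13 0.49 above the other replicates on the log2 scale, and Klf2 was the member that was lower, at -0.37. In untransformed replicate 3, Klf10 stood at -0.67, Klf4 at -0.48 and Klf5 at -0.47 against the other untransformed libraries. The members' ratios are plotted by gene for both libraries.

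**Figure D1:**
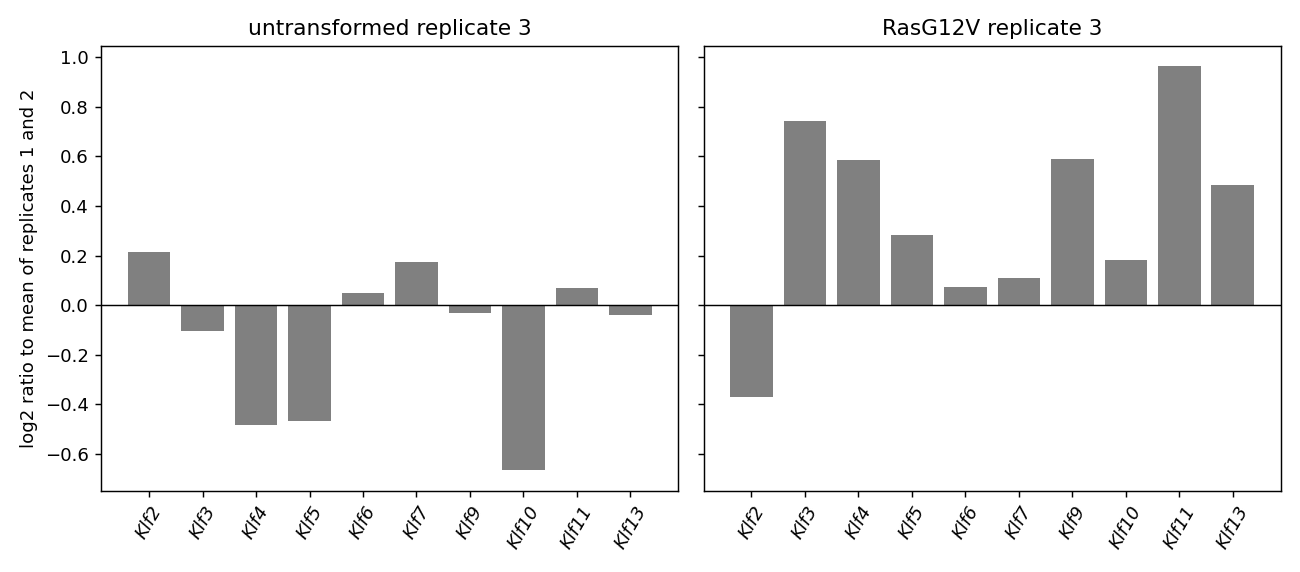
Bars give the log2 ratio of each Kruppel-like factor in untransformed replicate 3 (left) and RasG12V replicate 3 (right) to the mean of replicates 1 and 2 of the same group. In RasG12V replicate 3, 9 of 10 members lie above 0, with Klf11 at 0.96 and Klf2 at -0.37, and in untransformed replicate 3 the lowest is Klf10 at -0.67.

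Klf6 was the most abundant member per exon length in all 4 groups. Its level was 71.9 ± 2.4 RPKM (CPM divided by kilobases of exon, SD, n = 3) in untransformed and 86.3 ± 3.8 RPKM in RasG12V cells, which was 42.6% of the summed RPKM of the 10 members in untransformed cells. Klf5, with 24.7 ± 4.4 RPKM, and Klf3, with 21.5 ± 1.0 RPKM, came next in untransformed cells, and their SDs overlap. Klf4 followed at 19.2 ± 3.5 RPKM, and fell to 8.84 ± 2.23 RPKM in RasG12V cells. Klf9 and Klf10 each stood at 9.79 RPKM in untransformed cells, Klf13 at 5.51, Klf7 at 3.84 and Klf11 at 2.20. Klf2 was last in untransformed cells at 0.395 ± 0.144 RPKM and rose in RasG12V cells to 5.40 ± 1.12 RPKM, near Klf13 at 4.94 ± 1.04 and Klf7 at 4.74 ± 0.39. Klf2 therefore moved from the 14.3 percentile of RPKM among the genes tested to the 52.0 percentile, while Klf6 stayed between the 95.5 and the 96.5 percentile.

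**Figure D2:**
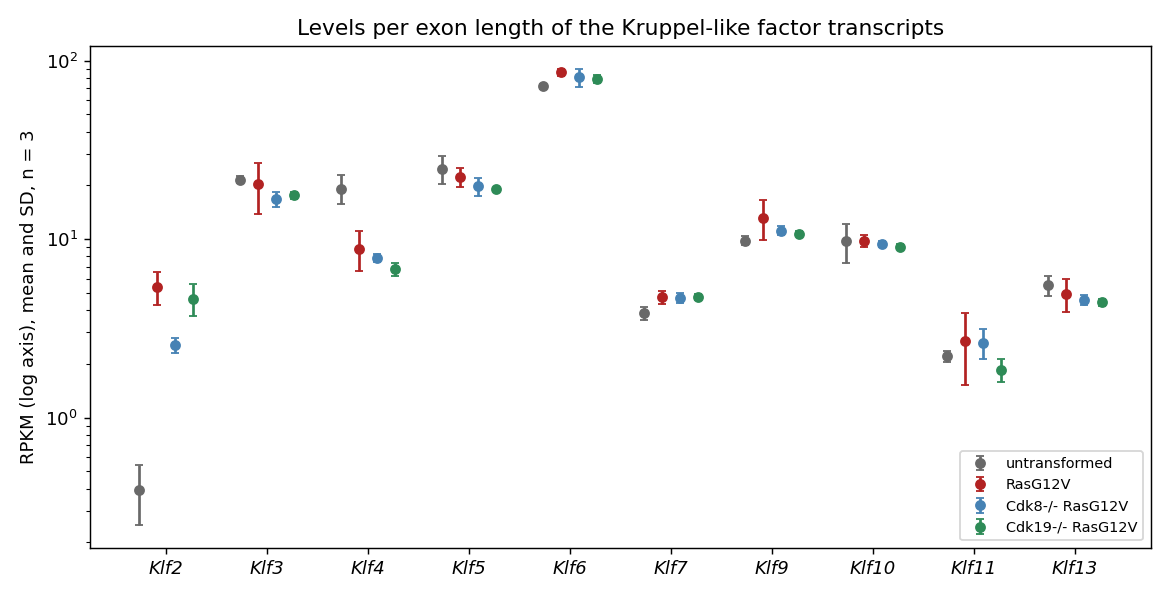
Points give mean RPKM on a log axis and bars the SD over 3 libraries for each member and group. Klf6 is highest in each group, and Klf2 is the member whose level differs most between untransformed (0.395 RPKM) and RasG12V cells (5.40 RPKM).

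With RasG12V transformation, Klf2 rose by more than any other member and Klf4 fell, while the most abundant member, Klf6, rose by 0.26 on the log2 scale. In the 12 libraries, 5 of the 10 members passed edgeR's quasi-likelihood test at an adjusted p under 0.05, 4 higher and 1 lower. Of all 14283 genes tested, 23.4% passed, 11.9% higher and 11.5% lower. The members' median log2 fold change was 0.13, against -0.0004 over all genes. Without both replicate 3 libraries, 8 of 10 members passed, 3 higher and 5 lower, beside 40.0% of all genes (19.0% higher and 21.0% lower). The libraries of both groups did not overlap for 5 of 10 members, beside 32.4% of all genes. The count of members that passed was 2 without untransformed replicate 1 or 2, beside 2359 of 14557 and 2431 of 14534 genes. It was 3 without RasG12V replicate 2 or Cdk19 -/- replicate 3, beside 2646 of 14615 and 3198 of 14595 genes. With 12 libraries, 3340 of 14283 genes passed.

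Klf2, an activator best known from endothelial cells and resting T cells, lay close to the limit of counting in untransformed cells. Its counts there were 12, 30 and 28, or 0.426, 0.927 and 0.834 CPM. In RasG12V cells it reached 12.3, 9.44 and 8.22 CPM, in Cdk8 -/- RasG12V cells 5.06, 4.83 and 4.20 CPM, and in Cdk19 -/- RasG12V cells 7.30, 7.81 and 10.5 CPM. Every transformed library lay above every untransformed one, and the Cdk8 -/- libraries lay below those of both other transformed groups. The log2 fold change from untransformed to RasG12V was 3.75 (SE 0.27, 13.4-fold, adjusted p = 1.24e-06), and Klf2 ranked 66 of 14283 genes by p. It was 3.95 without both replicate 3 libraries, and the call held in 22 of 22 alternatives. In the order of levels, untransformed lay below Cdk8 -/-, Cdk19 -/- and RasG12V, and among these neighbours the step from untransformed to Cdk8 -/- passed the test with 12 libraries.

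Markers of cell types in which Klf2 is usually found were at low levels, and 1 endothelial and 1 leukocyte marker rose with transformation. The summed level of 6 endothelial markers was 0.071 to 0.155 CPM in untransformed and 0.328 to 0.542 CPM in RasG12V libraries, with Kdr, Tek and Emcn at 0 in both groups. Cdh5, the endothelial cadherin, rose from 0.0748 to 0.396 CPM. The summed level of 6 leukocyte markers was 0.447 to 0.816 CPM in untransformed and 0.817 to 1.08 CPM in RasG12V libraries, with Adgre1 and Cd3e among those at 0. Csf1r, the receptor of macrophage colony-stimulating factor, rose from 0.211 to 0.572 CPM (adjusted p = 0.00745), and did not pass without both replicate 3 libraries (adjusted p = 0.0906). Ptprc, the other leukocyte marker tested, was not called, with 0.394 CPM in untransformed and 0.293 CPM in RasG12V cells. Itgam stood at 0.0523 and 0.048 CPM in these groups. Both sums lay well under the Klf2 level of RasG12V cells, and their part in the Klf2 rise was not tested. In bulk RNA, fewer cells of a type and less RNA per cell cannot be told apart.

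Klf4, an activator and repressor of epithelial differentiation and a reprogramming factor, was lower in every transformed library than in every untransformed one. It stood at 65.6, 63.7 and 46.1 CPM in untransformed, and at 23.7, 22.4 and 34.8 CPM in RasG12V cells. Cdk8 -/- RasG12V cells held 23.7, 22.8 and 25.4 CPM and Cdk19 -/- RasG12V cells 20.5, 19.1 and 22.3 CPM. The libraries nearest each other across the untransformed and RasG12V groups, at 46.1 and 34.8 CPM, were the replicate 3 libraries that stood apart. The log2 fold change was -1.11 (adjusted p = 0.000467, SE 0.17) with 12 libraries and -1.50 (adjusted p = 9e-11, SE 0.09) without both, and the call held in 22 of 22 alternatives. The order of levels was untransformed, RasG12V, Cdk8 -/- and Cdk19 -/- from high to low, and of the neighbours only untransformed and RasG12V differed by the test.

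Among the other activators, Klf6 and Klf7 were slightly higher in RasG12V cells and Klf5 was called only without the replicate 3 libraries. Klf6, the early response factor of liver injury, stood at 321, 303 and 323 CPM in untransformed and 360, 385 and 392 CPM in RasG12V libraries, which do not overlap. It changed by 0.26 on the log2 scale (adjusted p = 0.0433, SE 0.09), and it passed in 14 of 22 alternatives, with an adjusted p between 0.0211 and 0.157. Klf7, a ubiquitously expressed member known for neuronal outgrowth, stood at 31.3, 28.6 and 33.9 CPM in untransformed and 34.9, 40.2 and 40.5 CPM in RasG12V libraries, again without overlap. The rise was 0.30 on the log2 scale (adjusted p = 0.0311, SE 0.09), and it passed in 17 of 22 alternatives. Klf7 shares 3196 exonic bases with Gm26649 on the opposite strand, and the strand-specific counts used here keep these genes apart. Klf5, a factor of proliferating epithelium, stood at 144, 140 and 103 CPM in untransformed and 105, 111 and 132 CPM in RasG12V libraries. The groups overlap through untransformed replicate 3, which lies below all RasG12V libraries. The difference was -0.15 (adjusted p = 0.458, SE 0.13), and -0.41 (adjusted p = 0.000744, SE 0.09) without both. The calls of Klf6 and Klf7 were lost without untransformed replicate 1 or 2 or RasG12V replicate 2, and that of Klf6 also without Cdk8 -/- replicate 1 or any of the 3 Cdk19 -/- replicates. Both calls were also lost in a fit of these 2 groups alone, and that of Klf7 with no filter on low counts.

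The repressors gave few calls with 12 libraries and more without the replicate 3 libraries. Klf3, which recruits CtBP, stood at 253, 243 and 231 CPM in untransformed and at 183, 190 and 311 CPM in RasG12V libraries. RasG12V replicate 3 was the highest of all 12 libraries for Klf3, above the untransformed group, while RasG12V replicates 1 and 2 lay below that group. The log2 fold change was -0.09 (adjusted p = 0.76, SE 0.17) with 12 libraries, -0.37 (adjusted p = 0.00444) without RasG12V replicate 3 alone and -0.43 (adjusted p = 0.000264, SE 0.08) without both. Klf9, a target of glucocorticoid and thyroid hormone receptors, stood at 50.2, 44.9 and 46.4 CPM in untransformed and 52.3, 56.1 and 81.7 CPM in RasG12V libraries. Klf9 was 0.43 higher in log2 terms (adjusted p = 0.0402, SE 0.14), with the highest value in RasG12V replicate 3. The call held in 13 of 22 alternatives and was lost without RasG12V replicate 3 (0.22, adjusted p = 0.0531), without both replicate 3 libraries (0.18, adjusted p = 0.0946), and without any untransformed replicate, Cdk8 -/- replicate 2 or 3 or Cdk19 -/- replicate 3. A fit of the 2 groups alone gave 0.44 (adjusted p = 0.184).

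Klf10, Klf11 and Klf13, which bind Sin3A, did not pass with 12 libraries. Klf10, the TGF-beta-inducible early gene, stood at 46.5, 47.0 and 29.3 CPM in untransformed and 38.6, 39.7 and 44.4 CPM in RasG12V libraries. The fitted log2 fold change was 0.00 (SE 0.15, 95% confidence interval -0.34 to 0.34, adjusted p = 1), and -0.27 (adjusted p = 0.00735, SE 0.08) without both replicate 3 libraries. The untransformed replicate 3 value was the lowest of the 12 libraries for Klf10. Klf11, which is known for a role in beta cells, stood at 10.0, 8.81 and 9.86 CPM in untransformed and 8.34, 9.07 and 17.4 CPM in RasG12V libraries. The 12 libraries gave a log2 fold change of 0.29 (adjusted p = 0.451, SE 0.25), and -0.13 (adjusted p = 0.591, SE 0.17) without both, so that the sign rested on RasG12V replicate 3. Klf13, known for its action on the chemokine Ccl5 in T cells, stood at 47.2, 36.7 and 40.5 CPM in untransformed and 30.9, 34.6 and 46.0 CPM in RasG12V libraries. For Klf13 the log2 fold change was -0.16 (adjusted p = 0.462, SE 0.14), and -0.37 (adjusted p = 0.00865, SE 0.11) without both, and the groups overlapped only through RasG12V replicate 3.

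**Figure D3:**
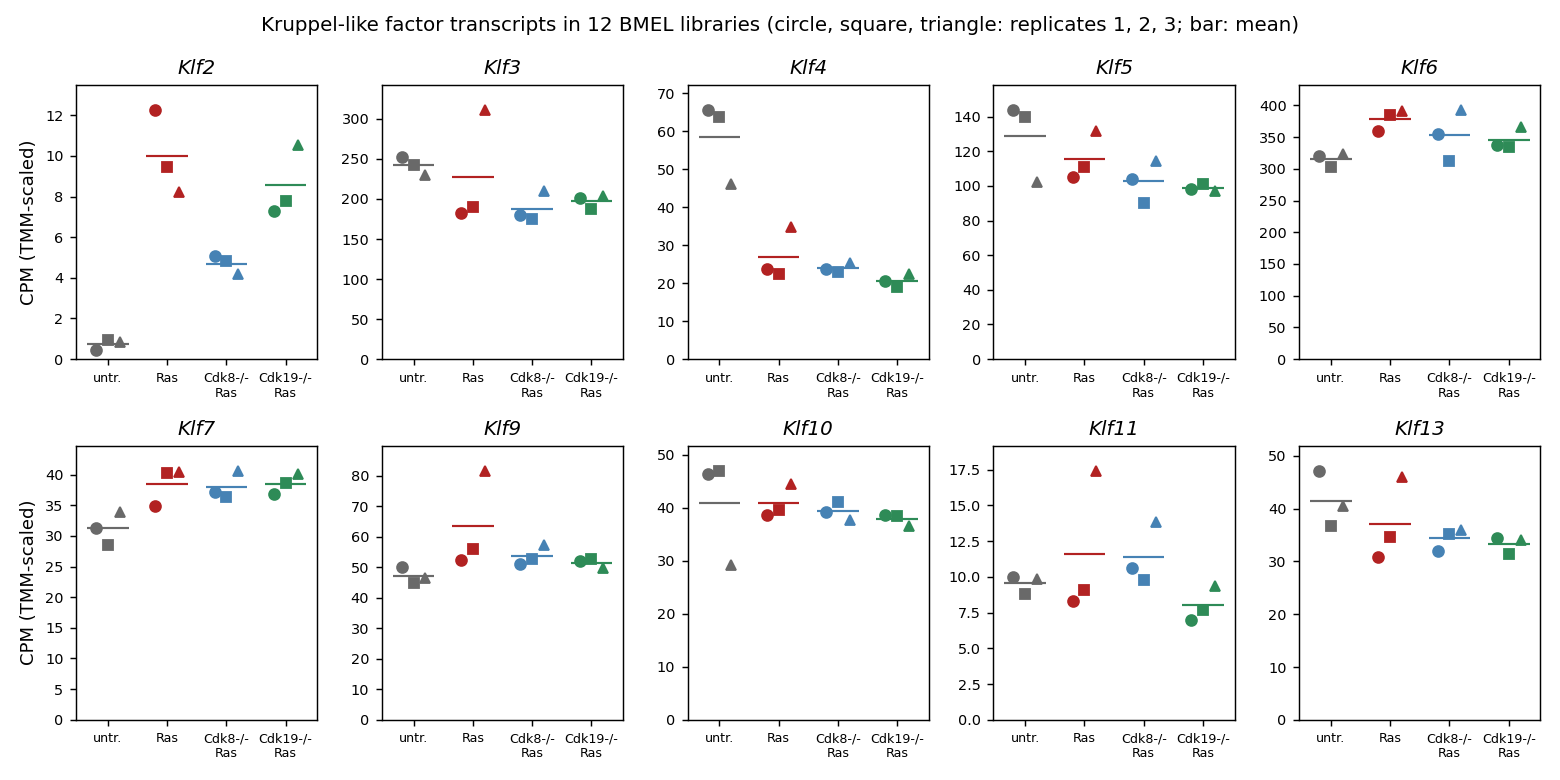
Each panel gives the CPM of a Kruppel-like factor in the 12 libraries by group, with circles, squares and triangles for replicates 1, 2 and 3 and a line at the mean of each group. Klf2 is under 1 CPM in every untransformed library and between 4.20 and 12.3 CPM in the transformed ones, and RasG12V replicate 3 is the highest of its group for 9 members.

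**Figure D4:**
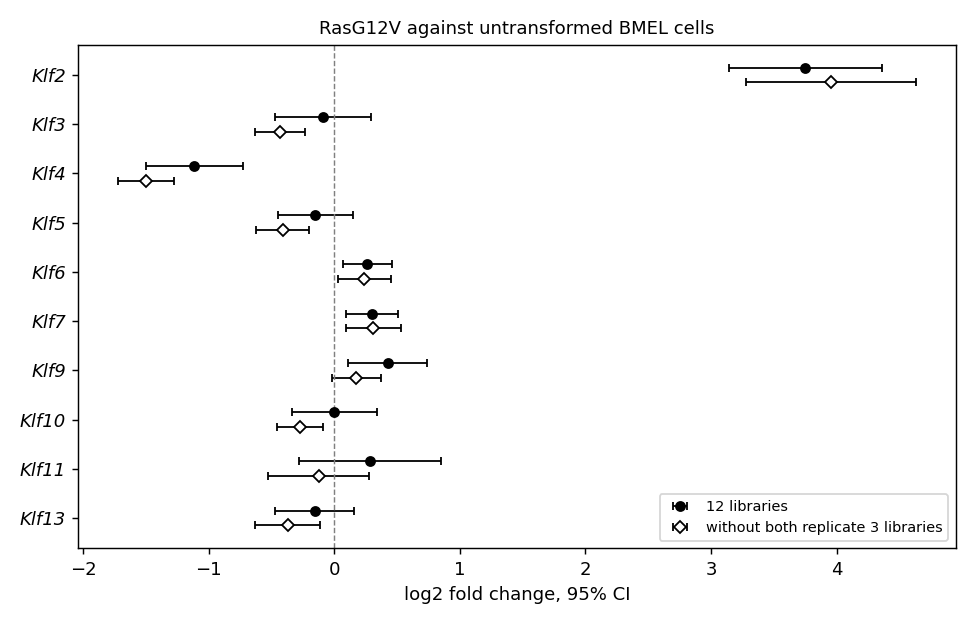
Log2 fold changes of the 10 members from untransformed to RasG12V cells with 95% confidence intervals, with 12 libraries (filled) and without both replicate 3 libraries (open). Klf2 lies at 3.75 and 3.95 and Klf4 at -1.11 and -1.50. Klf3, Klf5, Klf9, Klf10, Klf11 and Klf13 shift to lower values without these libraries, Klf9 from 0.43 to 0.18.

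In Cdk8 -/- against RasG12V cells, Klf2 was the member with the largest difference and none of the 10 passed with 12 libraries. Of all genes tested, 0% passed (0 of 14283). At an unadjusted p under 0.05 there were 1 member, Klf2, and 871 genes. DESeq2 called 1 member, Klf2, among 30 genes, and limma-voom called 0 genes. The Klf2 log2 fold change was -1.09 (SE 0.22, 95% confidence interval -1.60 to -0.58, adjusted p = 0.415), with all 3 Cdk8 -/- libraries (5.06, 4.83 and 4.20 CPM) below all 3 RasG12V libraries (12.3, 9.44 and 8.22 CPM). The libraries of Klf2 did not overlap, as for 12.5% of all genes, and Klf2 ranked 11 of 14283 genes by p. The difference stayed between -1.21 and -0.90 in all 22 alternatives and passed in 3 of them. The adjusted p was 0.000278 without a filter on low counts, 0.00171 with DESeq2 and 0.00263 without both replicate 3 libraries, and reached 0.999 in the least favourable. Without both replicate 3 libraries, where Klf2 was the member called, 1.59% of all genes passed and 0.414% passed as lower.

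With 12 libraries, the 95% confidence intervals of the other 9 members in Cdk8 -/- against RasG12V cells all held 0. Klf3 gave the widest difference, -0.28 (95% confidence interval -0.66 to 0.10), and it was 0.02 without both replicate 3 libraries. Klf4 stood at -0.17 (95% confidence interval -0.56 to 0.22) and Klf6 at -0.10 (95% confidence interval -0.30 to 0.10). Klf11 moved from -0.03 (95% confidence interval -0.60 to 0.53) to 0.40 without both (95% confidence interval 0.03 to 0.77, adjusted p = 0.167), where its Cdk8 -/- libraries lay above the remaining RasG12V libraries. All 10 members had a negative log2 fold change with 12 libraries, and 4 of 10 without both. In Cdk19 -/- against RasG12V cells all 10 were also negative, and 7 of 10 without both. The share of all genes with a negative value is not given here. With 12 libraries, the median over all genes was -0.0086 in the Cdk8 -/- and -0.0064 in the Cdk19 -/- comparison. Both comparisons share the RasG12V libraries, of which replicate 3 was high for 9 members.

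In Cdk19 -/- against RasG12V cells, no member passed, and Klf2 overlapped between the groups. Of all genes tested, 0.0140% passed (2 of 14283), and 3 members and 1089 genes had an unadjusted p under 0.05. Klf4 (-0.39, SE 0.17, adjusted p = 0.644), Klf9 (-0.30, SE 0.14, adjusted p = 0.652) and Klf11 (-0.54, SE 0.25, adjusted p = 0.655) were these 3 members. Klf2 stood at -0.22 (95% confidence interval -0.72 to 0.28, adjusted p = 0.851). The libraries of Klf4 and Klf5 did not overlap. Klf4 was at most 22.3 CPM in Cdk19 -/- and at least 22.4 CPM in RasG12V libraries. For Klf5 these values were 101 and 105 CPM. The share of all genes without overlap is not given here for this comparison. DESeq2 called 0 members among 66 genes, and limma-voom 0 members among 2 genes. Without both replicate 3 libraries there was also no member among the 2.01% of genes that passed, and Klf11 then stood at -0.11, Klf9 at -0.07 and Klf4 at -0.15. Klf7 was nearest to no difference with 12 libraries, at 0.00 (95% confidence interval -0.21 to 0.21).

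The difference between the knockouts was tested directly. In Cdk8 -/- against Cdk19 -/- cells, both transformed, 0 of 10 members and 0.105% of all genes (15 of 14283) passed, while 1 member, Klf2, and 1027 genes had an unadjusted p under 0.05. Klf2 was lower in all 3 Cdk8 -/- libraries than in any Cdk19 -/- library, with a log2 fold change of -0.87 (SE 0.22, 95% confidence interval -1.38 to -0.36, adjusted p = 0.251). It passed in 4 of 22 alternatives, among them DESeq2 (adjusted p = 0.0175) and the fit on these 2 groups alone (adjusted p = 0.00215), with a range up to 0.728. Limma-voom called 0 members among 16 genes. Klf11 was higher in the Cdk8 -/- libraries, at 10.6, 9.76 and 13.8 CPM, than in the Cdk19 -/- libraries, at 7.01, 7.70 and 9.33 CPM, which do not overlap, as for 20.7% of all genes. The log2 fold change of Klf11 was 0.51 (adjusted p = 0.729, SE 0.25). Klf4 did not overlap either, at 22.8 to 25.4 CPM in Cdk8 -/- and 19.1 to 22.3 CPM in Cdk19 -/- libraries. Its log2 fold change was 0.21 (adjusted p = 0.927, SE 0.17). Without both replicate 3 libraries, which belong to neither group and enter only the shared spread, Klf2 (-0.87, SE 0.17, adjusted p = 0.00483) and Klf11 (0.51, SE 0.13, adjusted p = 0.0321) both passed, beside 5.32% of all genes.

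**Figure D5:**
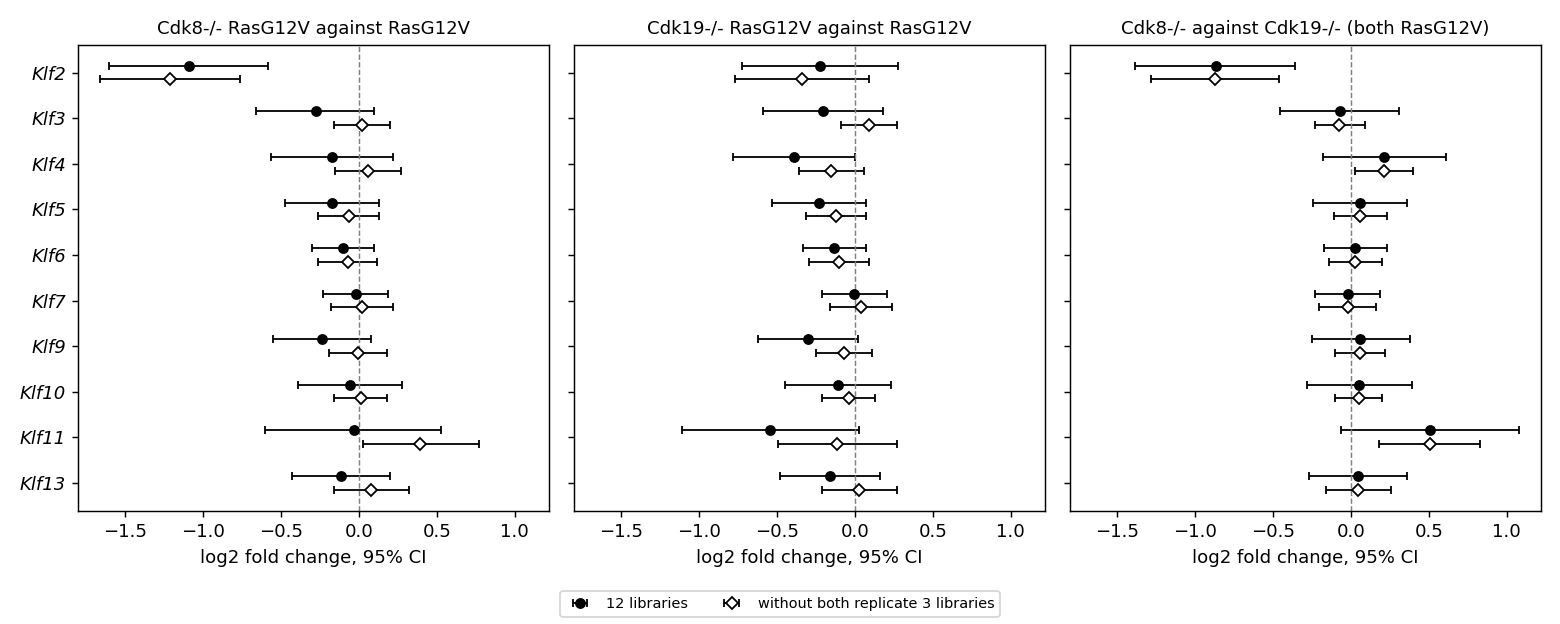
Log2 fold changes of the 10 members with 95% confidence intervals in 3 comparisons among transformed cells, with 12 libraries (filled) and without both replicate 3 libraries (open). Klf2 lies at -1.09 in Cdk8 -/- against RasG12V, at -0.22 in Cdk19 -/- against RasG12V and at -0.87 between the knockouts, and the interval of Klf11 lies above 0 in the last panel without these libraries.

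Against untransformed cells, the same 3 members passed in both knockout groups, Klf2 and Klf7 higher and Klf4 lower. These comparisons share the untransformed libraries with each other and with that of RasG12V. In Cdk8 -/- RasG12V cells, 3 of 10 members passed beside 24.4% of all genes: Klf2 at 2.66 (adjusted p = 2.02e-05, SE 0.27), Klf7 at 0.28 (adjusted p = 0.0408, SE 0.09) and Klf4 at -1.29 (adjusted p = 0.000167, SE 0.17). In Cdk19 -/- RasG12V cells, 3 of 10 passed beside 25.3% of all genes, with Klf2 at 3.53 (adjusted p = 2.58e-06, SE 0.26), Klf7 at 0.30 (adjusted p = 0.0299, SE 0.09) and Klf4 at -1.50 (adjusted p = 5.04e-05, SE 0.17). Klf7 stood at 37.1, 36.3 and 40.7 CPM in Cdk8 -/- and at 36.8, 38.6 and 40.0 CPM in Cdk19 -/- libraries, all above the untransformed ones. Its call was lost without untransformed replicate 1 or 2 in both comparisons, without Cdk8 -/- replicate 1 or 3 or Cdk19 -/- replicate 3 in the first and without Cdk19 -/- replicate 2 or 3 in the second, and in both with no filter on low counts.

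Klf3, Klf5, Klf10 and Klf13 were each lower without both replicate 3 libraries in these comparisons, which brought the count to 7 of 10 for Cdk8 -/- (42.2% of all genes) and 7 of 10 for Cdk19 -/- (43.6% of all genes). Klf5 was then at -0.47 in Cdk8 -/- and -0.53 in Cdk19 -/- cells, where its libraries held 104, 90.3 and 115 CPM and 98.2, 101 and 96.9 CPM. Klf3 was at -0.41 and -0.34, with 180, 175 and 210 CPM in Cdk8 -/- and 201, 187 and 204 CPM in Cdk19 -/- libraries, all below the untransformed 231 to 253 CPM. Klf10 was at -0.26 and -0.31, and Klf13 at -0.29 and -0.34. Without untransformed replicate 3 alone the counts were 5 and 5, beside 3843 and 4050 of 14569 genes. Without RasG12V replicate 3 alone they were 5 and 6, beside 4880 and 5094 of 14571 genes. Klf6 was between 313 and 393 CPM in Cdk8 -/- and between 334 and 366 CPM in Cdk19 -/- libraries and passed in neither group, at 0.16 (adjusted p = 0.198) and 0.13 (adjusted p = 0.292). Klf9 (0.19 and 0.13) and Klf11 (0.26 and -0.25) passed in neither.

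The remaining family members were scarce apart from Klf16. Klf15 and Klf17 had 0 counts in all 12 libraries, Klf14 had 1, Klf12 had 15 and Klf1 had 34, and these 5 were not tested. Klf8, a repressor that binds CtBP, stood at 0.659 ± 0.176 CPM in untransformed and 1.04 ± 0.29 CPM in RasG12V cells (log2 fold change 0.64, adjusted p = 0.153), and passed without both replicate 3 libraries (0.99, adjusted p = 0.0357). Klf16, which binds Sin3A, stood at 41.0 ± 7.8 and 37.4 ± 7.6 CPM (log2 fold change -0.13, adjusted p = 0.598). Of the related Sp factors, 6 of 9 were tested and 2 rose and 1 fell: Sp8, a factor of limb and brain development, by -1.40 (adjusted p = 0.00346), Sp4 by 0.39 (adjusted p = 0.0127) and Sp2 by 0.34 (adjusted p = 0.0321).

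Partners and regulators of the family were read in RasG12V against untransformed cells, where 23.4% of all genes passed with 12 libraries and 40.0% without both replicate 3 libraries. Of 12 corepressors and coactivators, 1 passed, Kat2b, a lysine acetyltransferase, at -0.57 (adjusted p = 0.00048), while Ctbp1, Sin3a and Ep300 did not pass. Ctbp1, a corepressor that Klf3 recruits, passed without both replicate 3 libraries, at -0.17 (adjusted p = 0.0435), against -0.11 (adjusted p = 0.208) with 12. Of the ERK5 and MEF2 genes, 6 of 8 were tested and 1 rose, Map3k2, a kinase upstream of MEK5, from 105 ± 7 to 152 ± 2 CPM (log2 fold change 0.53, adjusted p = 0.000403). Mapk7, which encodes ERK5, Mef2a and Mef2d did not pass, and Mef2c had 0 counts in both groups. None of 8 ubiquitin ligases passed with 12 libraries by edgeR's test, and 3 rose without both replicate 3 libraries, Smurf1, Itch and Fbxo32. Of the glucocorticoid response genes, 2 of 6 tested rose, Tsc22d3 at 1.35 (adjusted p = 0.000129) and Per1 at 0.46 (adjusted p = 0.019). Without both replicate 3 libraries 1 of the 6 rose and 1 fell: Tsc22d3 still passed, Per1 did not, at 0.26 (adjusted p = 0.0951), and Fkbp5, a chaperone of the glucocorticoid receptor, passed at -0.45 (adjusted p = 0.00042). Of 14 TGF-beta genes, 2 rose and 6 fell, led by Tgif1, a SMAD corepressor, at 0.81 (adjusted p = 0.00018), the ligand Tgfb3 at -2.80 (adjusted p = 0.000396), Pmepa1 at -0.97 (adjusted p = 0.0022) and Smad6 at -0.96 (adjusted p = 0.00326). Without both replicate 3 libraries 2 rose and 7 fell, with the receptor Tgfbr1 added at -0.59 (adjusted p = 6.52e-06). The median log2 fold change was -0.24 over the 14 TGF-beta genes and 0.04 over the 12 cofactors.

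The genes most like Klf2 and Klf4 were sought among 9592 protein-coding genes with a mean of at least 5 CPM, by Pearson's r of log2 CPM over the 12 libraries, a description without a test in which the group differences weigh most. Plod2 (r = 0.972), a collagen lysyl hydroxylase, Cacnb2 (r = 0.967), a calcium channel subunit, and Ppfibp1 (r = 0.965) were nearest to Klf2. All 3 were higher in every RasG12V than in every untransformed library, Plod2 with 244 ± 6 against 144 ± 7 CPM. Their log2 fold changes in Cdk8 -/- against RasG12V cells were -0.09, -0.17 and -0.19, against -1.09 for Klf2. Anks4b (r = 0.992) and Tmem106b (r = 0.991) were nearest to Klf4. Anks4b fell from 97.2 ± 17.7 to 52.2 ± 10.4 CPM. Like Klf4, both genes were lowest among the untransformed libraries and highest among the RasG12V libraries in replicate 3.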

How the data were processed

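RNA from 12 BMEL samples, 3 in each of 4 groups, was sequenced on a HiSeq2500. The authors deposited whole-number gene counts per library, in unstranded and strand-specific columns. Reads were checked with FastQC and, per the submitters' processing notes, aligned by STAR 2.6.0a on GRCm38.p6. The annotation behind the counts is not given in the sources used here. The reverse-strand counts, 24.7 to 28.9 times the forward ones, were used, and library sizes held only the 65.2% to 67.0% of reads that lay in genes. Symbols, coordinates and exon lengths came from GENCODE M21, which held 54079 of 54146 gene identifiers, and promoters from RefSeq on GRCm38.p6.

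Counts were tested with edgeR 4.0.16 in R 4.3.3 (filterByExpr, TMM, glmQLFit with robust estimation, glmQLFTest) in a fit of all 12 libraries, with Benjamini-Hochberg adjustment over 14283 genes and a threshold of 0.05. The test was run on simulated counts, with genes drawn independently and changes set only in the RasG12V group. These counts held no library that stood apart as a whole. They therefore cannot check results that depend on the replicate 3 libraries. CPM and RPKM are TMM-scaled and computed from these counts, and SEs are approximate, the absolute log2 estimate over the root of its quasi-likelihood F, with 95% intervals from 8 residual degrees of freedom (6 without both replicate 3 libraries). Alternatives were 22 in number: other scalings, filters, tools (DESeq2 1.42.0, limma-voom in limma 3.58.1), the unstranded column, a replicate block, only the compared groups, both replicate 3 libraries left out, and each library left out. The members, lists and alternatives were chosen with earlier results of these data known. All 10 members are named, and results on withheld items are not reported here. Of the other lists, at most 4 genes that passed in RasG12V against untransformed cells are named by adjusted p, beside some that did not pass, chosen after their values were seen. The main fit held no replicate block, and the labels do not say whether same-numbered libraries pair the groups. Intervals and floors cover counting error or spread between these libraries only. Figures were drawn with matplotlib 3.10.9.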

Additional observations from a re-analysis of the deposited data

How the results depend on the processing

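The rise of Klf2 and the fall of Klf4 against untransformed cells passed in 22 of 22 alternatives for each of the 3 transformed groups. Of 1320 member values under the alternatives, 1200 kept direction and side of the threshold. The threshold was lost by 33 and gained by 37, and 49 uncalled values changed sign. For 1 value, Klf10 in RasG12V against untransformed cells, 0.00 with no call became a called -0.27 without both replicate 3 libraries. Leaving out both gave 8 members called in RasG12V against untransformed, 7 in each knockout against untransformed, 1 in Cdk8 -/- against RasG12V and 2 between the knockouts. Fitting the 2 compared groups alone gave 2 in RasG12V against untransformed, beside 1574 of 13756 genes. The same fits gave 5 in Cdk19 -/- against untransformed (3894 of 13739 genes) and 1 between the knockouts (496 of 13648 genes). No filter on low counts, and DESeq2, each gave 1 in Cdk8 -/- against RasG12V and 1 between the knockouts. Without a filter, 16 and 108 of 30015 genes passed in these comparisons. DESeq2 called 30 of 14280 and 115 of 13449 genes. The cause of these shifts was not tested. Leaving out each library in turn gave 2 to 6 members in RasG12V against untransformed. It gave 2 to 5 in Cdk8 -/- and 2 to 6 in Cdk19 -/- against untransformed, and 0 in the other comparisons. In the same order, 2359 to 4808, 2529 to 4880 and 2649 to 5094 genes passed against untransformed, of 14534 to 14617 tested. In the other comparisons, 0 to 133 genes passed. With a replicate block the counts were 5, 3 and 3 against untransformed, beside 3685, 3750 and 3984 of 14283 genes. Among the transformed groups the counts were 0. The member counts were the same without the block. The labels do not say what a replicate number shares. Of 18 same-numbered pairs, 8 had a correlation of deviations over 0.1, and all pairs lay between -0.168 and 0.282. Among the 12 libraries, 6 correlated best with their own number in another group. No count expected without pairing was worked out, so pairing was not read from these values. Klf2 rests on 12 to 30 counts per untransformed library, which limits the precision of its fold change.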
